A study of Mus musculus with 47 samples.

Results

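The 9 genes described here carry the steps by which fat and muscle take up fatty acids: Lpl, Gpihbp1, Vldlr, Cd36, Slc27a1, Slc27a2, Fabp3, Fabp4 and Fabp5. They were chosen by symbol, are 9 of the 24391 genes in each count table, and each had a row in both tables. The study sequenced 47 RNA libraries from gastrocnemius muscle, white fat and brown fat of C57Bl6 mice taken 21 days after inoculation. 3P10 mice carried tumours of HT1080, a human fibrosarcoma line, and received the antibody 3P10 at 3 mg/kg weekly from day 0. IgG1 mice carried the same tumours and received IgG1 on the same schedule. NTB mice had no tumour, and no antibody or dose is listed for them, so that tumour and control antibody come together in IgG1 against NTB. 3P10 is known as an antibody against GFRAL, the hindbrain receptor of the circulating factor GDF15, and the study concerns the weight loss that goes with such tumours. Sex, age and the immune genotype that lets a human line grow are not given in the sources used here. There were 6 3P10, 5 IgG1 and 6 NTB libraries of brown fat, and 5 of each group in the other tissues.

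Triglyceride in blood lipoproteins is split at the capillary wall by lipoprotein lipase, the product of Lpl, which fat and muscle cells secrete. Gpihbp1, made by capillary endothelium, carries the enzyme across and holds it there, and Vldlr binds the lipoproteins. The freed fatty acids enter cells with the help of Cd36, a membrane fatty acid receptor, and of the transport proteins Slc27a1 (FATP1) and Slc27a2 (FATP2), which also activate fatty acids to acyl-CoA. Fabp4 and Fabp5 bind fatty acids in the cytosol of fat cells, and Fabp3 does so in heart, oxidative muscle and brown fat.

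The mouse promoters of 5 of the 9 members were found in a RefSeq table of build GRCm38.p6, with 8 start sites. Those of 4 members that passed the test in fat are shown, as the 250 bases before the start, 5′ to 3′ on the strand of the gene. Capitals mark AGGTCA, the half-site of PPAR and other nuclear receptors, or TGTTCT, the half-site of steroid receptors, searched on both strands. The Slc27a2 window lies at chr2:126552774-126553023 (+), the Slc27a1 window, the farthest upstream of its 3 starts, at chr8:71568621-71568870 (+), the Cd36 window at chr5:17835897-17836146 (-) and the Fabp3 window at chr4:130308488-130308737 (+).
Slc27a2: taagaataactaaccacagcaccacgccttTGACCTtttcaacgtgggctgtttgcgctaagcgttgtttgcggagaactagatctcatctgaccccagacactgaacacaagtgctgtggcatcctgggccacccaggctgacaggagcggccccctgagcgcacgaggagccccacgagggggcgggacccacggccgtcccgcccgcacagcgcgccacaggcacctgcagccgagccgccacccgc
Slc27a1: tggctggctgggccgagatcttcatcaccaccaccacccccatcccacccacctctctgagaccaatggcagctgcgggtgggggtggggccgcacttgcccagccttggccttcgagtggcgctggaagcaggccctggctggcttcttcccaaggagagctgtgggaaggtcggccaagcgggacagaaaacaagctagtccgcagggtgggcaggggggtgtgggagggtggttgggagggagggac
Cd36: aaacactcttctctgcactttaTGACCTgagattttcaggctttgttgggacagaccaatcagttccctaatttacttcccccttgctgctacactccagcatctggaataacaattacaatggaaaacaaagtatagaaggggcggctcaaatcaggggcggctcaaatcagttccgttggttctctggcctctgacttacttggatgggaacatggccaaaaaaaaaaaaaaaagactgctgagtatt
Fabp3: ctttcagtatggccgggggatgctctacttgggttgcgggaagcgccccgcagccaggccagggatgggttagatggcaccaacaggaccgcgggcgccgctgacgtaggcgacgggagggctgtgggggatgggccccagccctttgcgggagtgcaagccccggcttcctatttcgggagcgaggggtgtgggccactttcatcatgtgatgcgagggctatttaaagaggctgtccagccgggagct
Slc27a2 and Cd36 each held 1 AGGTCA on the reverse strand, read here as TGACCT, at 220 to 215 bases and at 228 to 223 bases before the start. The Slc27a1 and Fabp3 windows held neither set of letters, and of the windows not shown, 1 at Vldlr held TGTTCT. Of 32851 windows of this length in the table, 14.02% held AGGTCA and 16.1% held TGTTCT.

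Libraries summed to 24.8 to 33.5 M counts (M, 1e+06) for gastrocnemius, 18.6 to 80.7 M for white fat and 0.799 to 2.46 M for brown fat. The deepest white fat library was IgG1 replicate 4, at 80.7 M, and the next was NTB replicate 3, at 34.4 M. Where a library has 0 counts, up to 3 could be missed (counting error only), or 0.0838 to 0.143 CPM for gastrocnemius, 0.0395 to 0.161 CPM for white fat and 1.25 to 3.68 CPM for brown fat. CPM are counts for each M of the TMM-scaled library total, and a gene is called where the adjusted p of edgeR's quasi-likelihood test is under 0.05. Defining markers fitted the tissue labels: 10 brown and beige markers, Ucp1 among them, summed to 10182 to 15913 CPM in brown fat, 12 adipocyte markers, Adipoq among them, to 23943 to 44925 CPM in white fat, and 12 skeletal muscle markers to 216263 to 433775 CPM in gastrocnemius. Brown fat came from a 3′-end kit and another table, so its levels are not set against the other tissues. White fat and gastrocnemius libraries carry a number in their titles, which is 14, 15, 16 or 23 in 4 libraries of each tissue (3P10 replicate 2, IgG1 replicates 2 and 4, NTB replicate 3) and 1 to 12 in the rest. The labels do not say what the number means. In brown fat the library numbers run through 1 group after another, so that order and group cannot be told apart there.

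In brown fat, the antibody comparison separated members of the uptake path. Gpihbp1, Cd36 and Slc27a2 were lower with 3P10 than with IgG1, and Fabp5 was higher. Fabp3 was lower with IgG1 than without a tumour. Slc27a1 was near its detection limit, with 0 to 5 counts per library and 41 counts over all 17 libraries, so 8 of 9 members were tested. Of these 8, 4 were called in 3P10 against IgG1, where 11.6% of all 8711 genes tested were called. In IgG1 against NTB 1 of 8 was called, against 2.97% of all genes, and in 3P10 against NTB 1 of 8, against 5.75%. Groups did not overlap for 4 of 8 members in 3P10 against IgG1 (6.29% of all genes), for 1 in IgG1 against NTB (2.57%) and for 0 in 3P10 against NTB (3%). Any 2 of the 3 comparisons share the libraries of 1 group, so their folds are not independent.

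At the capillary wall, Gpihbp1 had 149 to 214 CPM (median 175) in 3P10 libraries, 245, 289, 352, 279 and 298 CPM in IgG1 libraries, and 212 to 361 CPM (median 256) in NTB libraries. Every 3P10 library lay below every IgG1 library, and the 3P10 and NTB ranges overlapped slightly at their ends. Gpihbp1 fell in 3P10 against IgG1 (log2 fold change -0.73, SE 0.12, adjusted p = 0.000797) and in 3P10 against NTB (-0.63, SE 0.12, adjusted p = 0.00673). In IgG1 against NTB its log2 fold change was 0.11 with adjusted p = 0.727. Whether there were fewer endothelial cells or less RNA in each cannot be told apart in such bulk samples. Of 10 endothelial markers tested from a list of 12, 1 was lower in 3P10 against IgG1 (Pecam1, -0.52, SE 0.12, adjusted p = 0.00627), where 11.6% of all genes were called. In 3P10 against NTB 4 were lower (Tek, Esam, Cdh5 and Egfl7, with Tek at -0.84, SE 0.15, adjusted p = 0.00508), where 5.75% were called. None was higher in either. The list median was -0.39 in 3P10 against IgG1, -0.54 in 3P10 against NTB and -0.14 in IgG1 against NTB (log2). The summed level of the 12 was 801 to 1195 CPM (median 1039) in 3P10, 821 to 1668 CPM (median 1229.7) in IgG1 and 1177 to 1749 CPM (median 1474) in NTB libraries. With the mean of these markers as a term in the fit, an alternative chosen after seeing the data, Gpihbp1 had log2 fold changes of -0.63, adjusted p = 0.0105 in 3P10 against IgG1 and -0.47, adjusted p = 0.521 in 3P10 against NTB. That term also lowered the number of all genes called, to 425 in 3P10 against IgG1 and 0 in 3P10 against NTB. Fibroblast markers fell too, 3 of 10 in 3P10 against IgG1 and 4 of 10 in 3P10 against NTB, and their part was not tested.

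Lpl had 11862 to 18184 CPM (median 15008) in 3P10 libraries, 14823, 12410.2, 22215, 21698 and 22411 CPM in IgG1 libraries, and 12307 to 18102 CPM (median 13234) in NTB libraries. Its values in 3 of the 5 IgG1 libraries lay above every 3P10 and every NTB library, and in the other 2 they lay within both ranges. Its log2 fold changes were 0.41, adjusted p = 0.129 in IgG1 against NTB and -0.32, adjusted p = 0.167 in 3P10 against IgG1. Neither was called with any 1 of the 16 libraries other than IgG1 replicate 2 left out (adjusted p up to 0.329 and 0.354). Without that library, the lowest of its group, whose removal raises the mean of the group, both were called (0.53, adjusted p = 0.0181 and -0.43, adjusted p = 0.0395). Vldlr had 249.8 to 306 CPM (median 298) in 3P10 libraries, 258, 169, 243, 201 and 249.7 CPM in IgG1 libraries, and 167 to 329 CPM (median 257) in NTB libraries. Its 3 ranges overlapped, and its smallest adjusted p was 0.0961, in 3P10 against IgG1, with a log2 fold change of 0.35.

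Among the membrane proteins, Cd36 had 2196 to 2568 CPM (median 2462) in 3P10 libraries, 3518, 3169, 3490.3, 2938 and 3066 CPM in IgG1 libraries, and 2333 to 3091 CPM (median 2776) in NTB libraries. The 3P10 and IgG1 libraries did not overlap, and NTB libraries spanned the gap between them. Cd36 fell in 3P10 against IgG1 (-0.41, SE 0.08, adjusted p = 0.00221), while its log2 fold changes were 0.24, adjusted p = 0.107 in IgG1 against NTB and -0.17, adjusted p = 0.185 in 3P10 against NTB. Slc27a2 had 59.7 to 89.1 CPM (median 77.2) in 3P10 libraries, 110.2, 93.5, 106, 103 and 108 CPM in IgG1 libraries, and 46 to 97.3 CPM (median 75.3) in NTB libraries. Its IgG1 libraries lay above every 3P10 library and, but for 1 NTB library, above the NTB libraries. The fall in 3P10 against IgG1 was called (-0.48, SE 0.15, adjusted p = 0.0421) and lay near the threshold. With any 1 library left out the fold stayed between -0.54 and -0.43, but it was not called without any 1 of 9 libraries (IgG1 replicates 1, 3, 4 and 5, and 3P10 replicates 1, 2, 3, 4 and 6), where adjusted p was 0.0502 to 0.0981. In IgG1 against NTB Slc27a2 had a log2 fold change of 0.54, adjusted p = 0.0602. With the endothelial markers as a term, the folds in 3P10 against IgG1 were -0.35, adjusted p = 0.0188 for Cd36 and -0.53, adjusted p = 0.0945 for Slc27a2.

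Among the cytosolic binding proteins, Fabp3 had 832 to 1773 CPM (median 1507) in 3P10 libraries, 989, 1237, 1132, 920.1 and 888 CPM in IgG1 libraries, and 1352 to 2259.8 CPM (median 1470.0) in NTB libraries. All 5 IgG1 libraries lay below all 6 NTB libraries, while the 3P10 libraries overlapped both. Fabp3 fell in IgG1 against NTB (-0.63, SE 0.16, adjusted p = 0.0363) and had a log2 fold change of 0.48, adjusted p = 0.0562 in 3P10 against IgG1. The fall lay near the threshold: with any 1 library left out the fold stayed between -0.70 and -0.51, but it was not called without NTB replicate 5 or 6 or without IgG1 replicate 1, 3, 4 or 5 (adjusted p = 0.0677 to 0.121). The 3P10 against IgG1 fold was called with DESeq2 (adjusted p = 0.0353), with no low-count filter (adjusted p = 0.0393) and without NTB replicate 5, IgG1 replicate 2 or 3P10 replicate 1 or 4 (adjusted p = 0.00856 to 0.0468). Fabp3 is also a muscle gene, and summed skeletal muscle markers were 2.49 to 2310.4 CPM (median 614) in 3P10, 164 to 2247 CPM (median 538) in IgG1 and 806 to 2983 CPM (median 1245) in NTB libraries. With these markers as a term the Fabp3 fold in IgG1 against NTB was -0.67, adjusted p = 0.0418. A separate list of slow oxidative fibre genes of muscle had a median log2 fold change of -0.45 in IgG1 against NTB, beside -0.01 over all genes. Of its 9 genes tested 0 were called, and its part in the Fabp3 fold was not tested. Of the 10 brown and beige markers, Ucp1, the uncoupling protein of brown fat, fell in the same comparison (-0.41, SE 0.11, adjusted p = 0.0359). Kcnk3 rose (0.37, SE 0.10, adjusted p = 0.0450) and 8 were not called, with a list median of -0.08.

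Fabp5 had 93.7 to 209 CPM (median 114) in 3P10 libraries, 86.3, 82.5, 68.4, 75.9 and 67.3 CPM in IgG1 libraries, and 78.3 to 150.1 CPM (median 96.5) in NTB libraries. Every 3P10 library lay above every IgG1 library, and NTB libraries overlapped both. Fabp5 rose in 3P10 against IgG1 (0.76, SE 0.19, adjusted p = 0.0127), and with the endothelial markers as a term its fold was 0.55, adjusted p = 0.153. Near-identical processed copies of Fabp5 lie in the mouse genome, so its counts could be split or shared. Fabp4 had 8464 to 13511 CPM (median 12211) in 3P10 libraries, 10344, 7723, 10559.8, 12573 and 9913 CPM in IgG1 libraries, and 6523 to 11425 CPM (median 10168) in NTB libraries. Its 3 ranges overlapped throughout, and its lowest adjusted p was 0.203, in 3P10 against NTB, with a log2 fold change of 0.29.

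**Figure D1:**
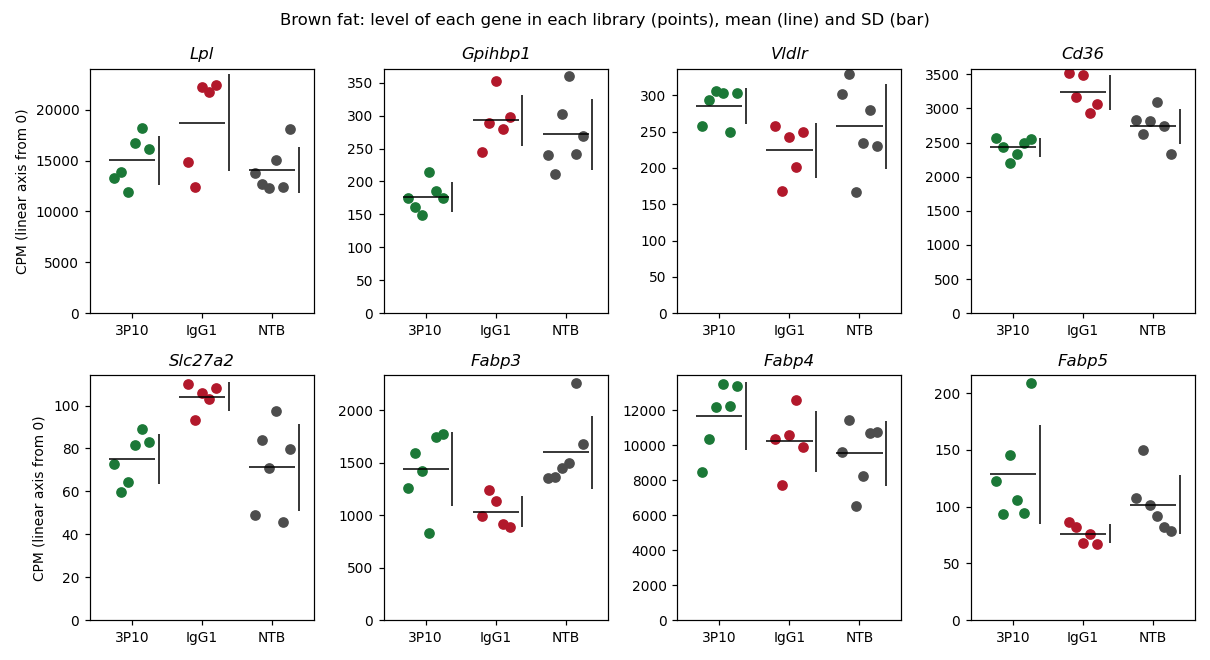
Level in CPM (y axis, linear from 0) of 8 members in each brown fat library (points; 3P10 green, IgG1 red, NTB grey), with the group mean (line) and SD (bar). The 3P10 points of Gpihbp1, Cd36 and Slc27a2 lie below all IgG1 points, those of Fabp5 lie above them, and the IgG1 points of Fabp3 lie below all NTB points.

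Some genes on the lists around the members were called in brown fat. The share of all genes called there was 11.6% (3P10 against IgG1), 2.97% (IgG1 against NTB) or 5.75% (3P10 against NTB). In 3P10 against IgG1, 1 of 9 tested partners and inhibitors of lipoprotein lipase was called: Angptl4, which inhibits the enzyme, rose (0.77, SE 0.23, adjusted p = 0.0302). Of 7 acyl-CoA synthetases, which trap fatty acids in the cell, Acsl3 (0.65, SE 0.14, adjusted p = 0.00514) and Acsl5 (0.68, adjusted p = 0.00957) rose and the medium-chain enzyme Acsm3 fell (-1.01, SE 0.19, adjusted p = 0.00202). The acyl-CoA binding protein Dbi rose (0.41, adjusted p = 0.00669), 1 of 4 other carriers tested, and Ppara, the nuclear receptor for fatty acids, rose (0.94, adjusted p = 0.00129), 1 of 14 regulators. No gene of the caveola list (13 tested) or of the lipoprotein receptors and lipases (6 tested) was called by edgeR. Brown and beige markers rose in 6 of 10 cases, Ucp1 by 0.73 on the log2 scale (adjusted p = 0.000257). In IgG1 against NTB, Acsl3 fell and Acsm3 rose (-0.55 and 0.70, adjusted p = 0.0388 and 0.0476), and no gene of the other 5 pathway lists was called. In 3P10 against NTB, Acsl5 (0.71, adjusted p = 0.0140), Acss1 (0.59, adjusted p = 0.0329) and Dbi (0.31, adjusted p = 0.0414) rose, and the caveola gene Sdpr (-0.38, adjusted p = 0.0112) and the VEGF-B receptor gene Flt1 (-0.51, adjusted p = 0.0322) fell. The median log2 fold change in 3P10 against IgG1 was -0.06 over the 8 members and -0.20 to 0.24 over the 6 pathway lists, beside -0.01 over all genes.

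In white fat, the members called were the Slc27 transporters. Slc27a1 was about 3 times as high with IgG1 as in NTB mice, and 3P10 white fat lay near NTB. Slc27a2 was also higher with IgG1, through 3 of 5 libraries. Of the 9 members, 2 were called in IgG1 against NTB (8.64% of all 14402 genes tested), 1 in 3P10 against IgG1 (7.42%) and 0 in 3P10 against NTB, where edgeR called 0% of all genes. Groups did not overlap for Slc27a1 alone in IgG1 against NTB (1 of 9, against 8.85% of all genes), for Slc27a1 alone in 3P10 against IgG1 (5.65%) and for 0 members in 3P10 against NTB (0.847%). In 3P10 against NTB 542 genes, 0 of them members, had an unadjusted p under 0.05, and DESeq2 called 32 genes, 0 of them members.

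Slc27a1 had 988, 967, 552, 1493 and 1046 CPM in 3P10 libraries, 2881, 2804, 1992, 2724 and 2513 CPM in IgG1 libraries, and 516, 1228, 1032, 717 and 889 CPM in NTB libraries. All 5 IgG1 libraries lay above all 10 others, and the 3P10 and NTB ranges overlapped. The means were 1009 ± 334 CPM in 3P10, 2583 ± 358 CPM in IgG1 and 876 ± 276 CPM in NTB libraries (SD, n = 5 each). Slc27a1 rose in IgG1 against NTB (log2 fold change 1.56, SE 0.26, adjusted p = 0.00658) and fell in 3P10 against IgG1 (-1.36, SE 0.26, adjusted p = 0.0144). Its log2 fold change in 3P10 against NTB was 0.20 with SE 0.25. Both calls held when any 1 library was left out (1.44 to 1.73, and -1.54 to -1.21). Within title numbers 1 to 12 the folds were close in size but no longer called (1.56, adjusted p = 0.0674, and -1.27, adjusted p = 0.135). That subset has 3 IgG1 libraries, and in it edgeR called 0 of all genes in 3P10 against IgG1 (and 84 in IgG1 against NTB). Without IgG1 replicates 2 and 4 alone, Slc27a1 had 1.49, adjusted p = 0.0444 in IgG1 against NTB, and its 3P10 against IgG1 fold lost the call (-1.29, adjusted p = 0.0863).

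Fibroblast markers moved with Slc27a1 in the other direction. Of 10 on the list, 7 were lower in IgG1 against NTB and 7 higher in 3P10 against IgG1, among them Col1a1 (-2.35, SE 0.49, adjusted p = 0.0139) and Lum (-1.84, SE 0.32, adjusted p = 0.00811), which make extracellular matrix. Their sum was 1857 to 3817 CPM (median 3024) in 3P10, 750.0 to 2069 CPM (median 1235) in IgG1 and 3117 to 4714 CPM (median 3935) in NTB libraries. Summed adipocyte markers were 28701 to 33334 CPM (median 29585) in 3P10, 34714 to 44925 CPM (median 39144) in IgG1 and 23943 to 37375 CPM (median 27949) in NTB libraries. In IgG1 against NTB 2 of 12 were called higher, Cfd and Pnpla2, and 10 were not called, with a list median of -0.02 (log2). Cfd alone averaged 18589 CPM in IgG1 and 10457 CPM in NTB libraries, so it weighs heavily in the sum. Macrophage markers rose in 4 of 10 cases in 3P10 against IgG1. The part of these shifts in the Slc27a1 result was not tested.

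Slc27a2 had 16.1, 5.64, 1.2, 22.1 and 16.2 CPM in 3P10 libraries, 2.99, 107, 7.25, 211 and 39.8 CPM in IgG1 libraries, and 8.64, 13.8, 3.215, 6.68 and 6.3 CPM in NTB libraries. IgG1 replicates 2, 4 and 5 lay above every other library, and IgG1 replicates 1 and 3 lay within the NTB range or just below it. The highest, IgG1 replicate 4, was also by far the deepest white fat library (80.7 M counts), and the part of depth was not tested. Slc27a2 rose in IgG1 against NTB (3.26, SE 0.95, adjusted p = 0.0458) with overlapping groups. Its log2 fold change in 3P10 against IgG1 was -2.60, adjusted p = 0.0878. That fold was called with DESeq2 (adjusted p = 0.0358) and without IgG1 replicate 1 or 3 (adjusted p = 0.0347 and 0.0364). The IgG1 against NTB fold stayed between 2.35 and 3.60 with any 1 library left out, but was not called without any 1 of 11 libraries (IgG1 replicates 2, 4 and 5, 3P10 replicates 1, 4 and 5, and each NTB replicate), with adjusted p of 0.0527 to 0.130. Without IgG1 replicates 2 and 4, an alternative chosen after seeing the data, Slc27a2 had 1.11, adjusted p = 0.486, and within title numbers 1 to 12 it had 0.91, adjusted p = 0.593.

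Fabp3 followed the same libraries. It had 34.9, 19.3, 13.8, 58.6 and 32.6 CPM in 3P10 libraries, 9.8, 266, 24.5, 139 and 56.8 CPM in IgG1 libraries, and 47.6, 28, 6.46, 25.3 and 33.7 CPM in NTB libraries. IgG1 replicates 2 and 4 were the highest of the 15 libraries, and IgG1 replicate 1 was below all but 1 NTB library. The Fabp3 log2 fold change was 1.81, adjusted p = 0.111 in IgG1 against NTB and -1.64, adjusted p = 0.148 in 3P10 against IgG1. Without IgG1 replicate 1 it was called in IgG1 against NTB (2.11, adjusted p = 0.0382). Without IgG1 replicate 2 the folds were 1.03, adjusted p = 0.357 and -0.86, adjusted p = 0.454, and within title numbers 1 to 12 its sign turned (-0.15, adjusted p = 0.905, and 0.20, adjusted p = 0.888). Slow oxidative fibre genes of muscle, a list of 10, had a median log2 fold change of 1.64 in IgG1 against NTB, beside -0.01 over all genes. Mb, the myoglobin gene, was the 1 called (1.504, SE 0.44, adjusted p = 0.0454), where 8.64% of all genes were called. The list median was 1.41 in 3P10 against NTB, where Fabp3 had 0.17, and -0.46 in 3P10 against IgG1. The sum of the slow oxidative fibre genes was 248 to 554 CPM (median 349.9) in 3P10, 241 to 861 CPM (median 370.2) in IgG1 and 242 to 274 CPM (median 245) in NTB libraries. Their part in the Fabp3 values was not tested.

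Brown and beige markers were high in the same libraries. Their sum was 359 to 1461 CPM (median 1028) in 3P10 libraries, 373, 6005, 275, 6124 and 1926 CPM in IgG1 replicates 1 to 5, and 393 to 1527 CPM (median 964) in NTB libraries. Ucp1 stood at 3286 and 3143 CPM in IgG1 replicates 2 and 4, against 37.1 to 712 CPM in the other 13 libraries. The mean of these markers was also used as a term in the fit, an alternative chosen after seeing the data. In IgG1 against NTB, Slc27a2 then had 1.10, adjusted p = 0.0756, Fabp3 had 0.59, adjusted p = 0.249, and Slc27a1 had 1.49, adjusted p = 0.00391. Lymphocyte and epithelial markers summed to 191 and 824 CPM in IgG1 replicates 2 and 4, against 13.4 to 46.6 CPM in the other 13 libraries, with the B-cell gene Ms4a1 at 0 in all 15. The list did not move as 1: the keratin gene Krt14 alone had 283 CPM in IgG1 replicate 4. Ptprc averaged 10.1 CPM in IgG1 and 21.3 CPM in 3P10 libraries (3P10 against IgG1 1.07, SE 0.20, adjusted p = 0.0144). The part of these markers in the Slc27a2 and Fabp3 values was not tested. Among IgG1 libraries the brown and beige markers were lowest in replicates 1 and 3, where Slc27a1 stood at 2881 and 1992 CPM, the highest and the lowest of that group.

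**Figure D2:**
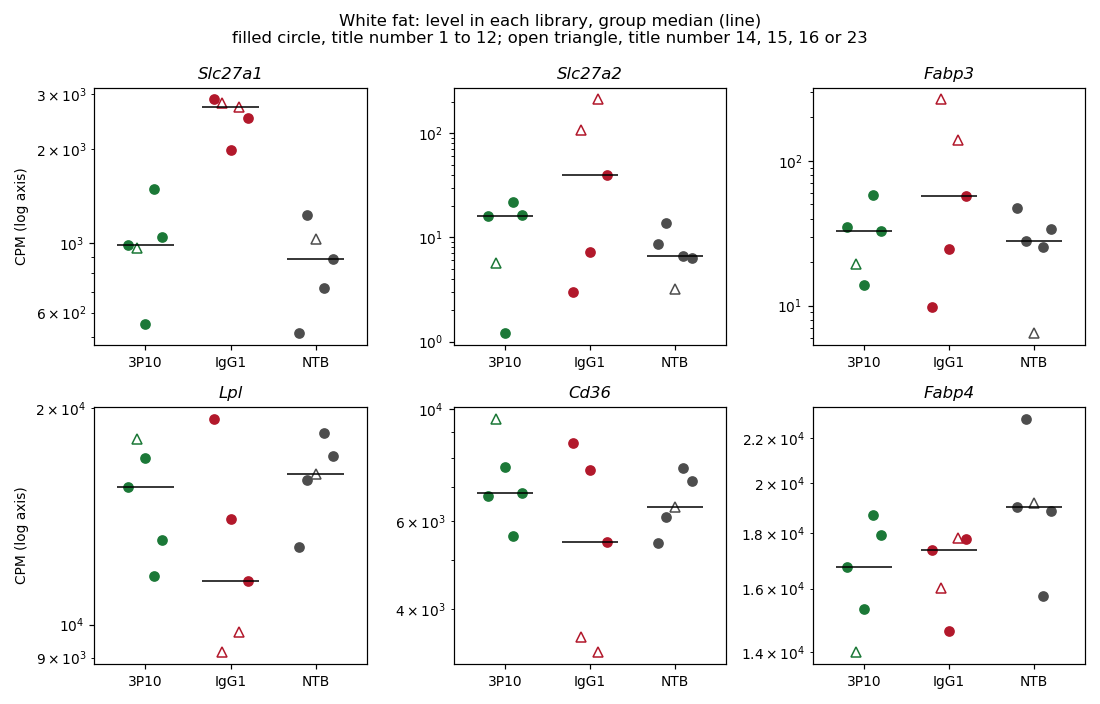
Level in CPM (y axis, log scale) of 6 members in each white fat library (3P10 green, IgG1 red, NTB grey; open triangles are title numbers 14, 15, 16 and 23), with the group median (line). All IgG1 points of Slc27a1 lie above the other groups, whereas for Slc27a2 and Fabp3 the 2 open IgG1 triangles are the highest points, and for Lpl and Cd36 they are the lowest.

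**Figure D3:**
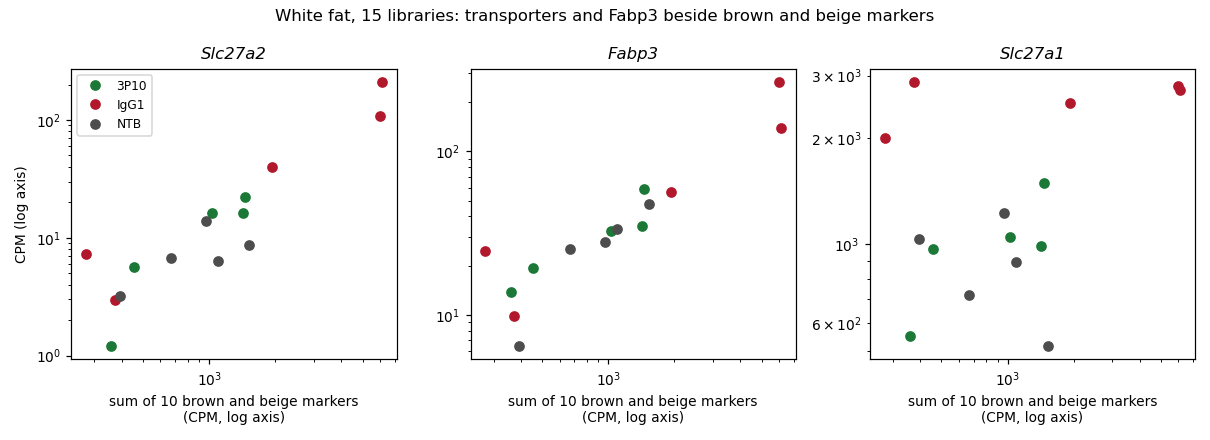
Level in CPM (y axis, log scale) of Slc27a2, Fabp3 and Slc27a1 beside the summed level of 10 brown and beige markers (x axis, CPM, log scale) in the 15 white fat libraries (3P10 green, IgG1 red, NTB grey). The IgG1 libraries at 6005 and 6124 CPM on the x axis have the highest Slc27a2 and Fabp3, while Slc27a1 is high in IgG1 libraries at both ends of the axis.

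The capillary and binding members showed no called difference in white fat. Lpl had 15539, 18098, 17047, 11675 and 13089 CPM in 3P10 libraries, 19316, 9147, 14012, 9764 and 11484 CPM in IgG1 libraries, and 12832, 15902, 16163, 18435 and 17138 CPM in NTB libraries. Cd36 had 6726, 9576, 7684, 5582 and 6800.1 CPM in 3P10 libraries, 8570.4, 3527, 7556, 3279.7 and 5454 CPM in IgG1 libraries, and 5423, 6099, 6381, 7629.7 and 7200.3 CPM in NTB libraries. For both genes the lowest 2 libraries of all were IgG1 replicates 2 and 4, and the highest IgG1 library was replicate 1. In IgG1 against NTB the log2 fold changes were -0.34, adjusted p = 0.355 for Lpl and -0.21, adjusted p = 0.638 for Cd36. Gpihbp1 ranged from 36.3 to 95.5 CPM in 3P10, 38.1 to 76.2 CPM in IgG1 and 25.9 to 88.3 CPM in NTB libraries. Vldlr had 142, 149.6, 156, 138 and 130.1 CPM in 3P10 libraries, 135, 177, 145, 219.9 and 175 CPM in IgG1 libraries, and 112.3, 155, 172, 133 and 145 CPM in NTB libraries, with a log2 fold change of 0.25, adjusted p = 0.241 in IgG1 against NTB. Fabp4 ranged from 13985 to 18697 CPM in 3P10, 14629 to 17795 CPM in IgG1 and 15763 to 22901 CPM in NTB libraries. Fabp5 ranged from 132 to 377 CPM in 3P10, 107 to 399 CPM in IgG1 and 146 to 335 CPM in NTB libraries. These ranges overlapped in all 3 comparisons.

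Around the white fat members, the acyl-CoA synthetases Acsm5 (1.27, SE 0.25, adjusted p = 0.0114) and Acsm3 (1.88, adjusted p = 0.0328) rose in IgG1 against NTB and fell in 3P10 against IgG1, 2 of 10 on their list. Lmf1, needed to fold lipoprotein lipase, rose in IgG1 against NTB (0.49, SE 0.12, adjusted p = 0.0234), 1 of 12 partners tested, and fell in 3P10 against IgG1 (-0.47, adjusted p = 0.0311). Mfsd2a, a lysophospholipid transporter and 1 of 8 other carriers tested, was called in both and averaged 0.242 CPM in 3P10, 19.9 CPM in IgG1 and 0.0996 CPM in NTB libraries. Of the other Slc27 transporters tested, Slc27a3, Slc27a4 and Slc27a6, none was called, with log2 fold changes of -0.36, 0.05 and -0.84 in IgG1 against NTB (adjusted p = 0.420, 0.848 and 0.485). In the caveola list 2 of 15 fell, the cavin gene Prkcdbp (-2.15, SE 0.40, adjusted p = 0.00906) and the kinase gene Fyn (-0.75, adjusted p = 0.0106). Klf15, a transcription factor of fasting metabolism, rose (0.58, adjusted p = 0.0315), 1 of 14 regulators. In 3P10 against IgG1 these 3 genes were called with the other sign, and Nr1h3, the liver X receptor gene, fell (-0.36, adjusted p = 0.0382). None of 10 lipoprotein receptors and lipases tested was called by edgeR in either comparison. Medians of these 6 pathway lists in IgG1 against NTB lay between -0.30 and 0.50 (log2), beside -0.01 over all genes and -0.02 over the 9 members.

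In gastrocnemius, none of the 9 members was called by edgeR in any of the 3 comparisons. Groups overlapped for all 9, while groups did not overlap for 1.53% of all genes in 3P10 against NTB, 2.44% in 3P10 against IgG1 and 6.38% in IgG1 against NTB. The share of all 13283 genes called was 5.6% in IgG1 against NTB, 0.211% in 3P10 against IgG1 and 0% in 3P10 against NTB. At an unadjusted p under 0.05 there were 1, 0 and 0 members in the 3 comparisons, and DESeq2 called 0 members in each. In 3P10 against NTB 563 genes had an unadjusted p under 0.05 and DESeq2 called 14 genes.

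Vldlr was the member with an unadjusted p under 0.05. It had 189.6, 69.9, 122, 221 and 143 CPM in 3P10 libraries, 128, 265, 200.2, 213 and 119.9 CPM in IgG1 libraries, and 131, 130.0, 93.3, 122 and 105 CPM in NTB libraries. IgG1 replicates 2, 3 and 4 lay above every NTB library, and the other 2 within the NTB range. Its log2 fold change was 0.67, SE 0.27, adjusted p = 0.167 in IgG1 against NTB. Fabp3, the muscle form, had 200.2, 142, 234, 193 and 295 CPM in 3P10 libraries, 156, 152, 229, 72.1 and 105 CPM in IgG1 libraries, and 314, 154, 150.1, 164 and 194 CPM in NTB libraries. Its groups overlapped, with log2 fold changes of -0.45, adjusted p = 0.402 in IgG1 against NTB and 0.58, adjusted p = 0.495 in 3P10 against IgG1.

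Slc27a1 had 114, 74.2, 103, 121 and 137 CPM in 3P10 libraries, 183, 91.7, 134, 71.4 and 145 CPM in IgG1 libraries, and 136, 94.4, 51.2, 84.5 and 115 CPM in NTB libraries. In all 3 groups its lowest values came from the libraries with title numbers 14 and above, below every library numbered 1 to 12 of the same group. No other member showed this in all 3 groups, and Fabp4 showed the opposite order in all 3. Among the libraries numbered 1 to 12, Slc27a1 was 103 to 137 CPM in 3P10, 134 to 183 CPM in IgG1 and 84.5 to 136 CPM in NTB. Its log2 fold change in IgG1 against NTB was 0.38, adjusted p = 0.468 in all libraries and 0.52, adjusted p = 0.0686 within numbers 1 to 12. With the title number as a term Slc27a1 was called (0.54, adjusted p = 0.0132), in a fit that called 2455 genes against 744 without the term.

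Fabp4, a fat cell gene, had 185, 1065, 239.8, 374 and 639 CPM in 3P10 libraries, 185, 569.9, 278, 643 and 499 CPM in IgG1 libraries, and 227, 207, 627, 177 and 346 CPM in NTB libraries. Its groups overlapped, and the highest values of each group came from title numbers 14 and above. Summed adipocyte markers also varied, from 507 to 1254 CPM in 3P10, 650.4 to 1423 CPM in IgG1 and 443 to 828 CPM in NTB libraries, so adipocyte marker RNA was detected in every muscle library. With these markers as a term the Fabp4 log2 fold change in 3P10 against NTB was -0.19, adjusted p = 1, against 0.66 without it. Lpl had 671, 809.9, 758, 932 and 997 CPM in 3P10 libraries, 700.0, 1129, 815, 656 and 667 CPM in IgG1 libraries, and 821, 608, 695, 698 and 892 CPM in NTB libraries. Cd36 had 299.8, 366, 386, 469 and 564 CPM in 3P10 libraries, 487, 363, 443, 288 and 424 CPM in IgG1 libraries, and 399, 308, 271, 299.9 and 426 CPM in NTB libraries. Both genes overlapped in all comparisons, with log2 fold changes from 0.06 to 0.29. Gpihbp1 ranged from 7.19 to 10.4 CPM in 3P10, 9.31 to 10.6 CPM in IgG1 and 7.65 to 12 CPM in NTB libraries. Fabp5 ranged from 4.11 to 13.1 CPM in 3P10, 2.87 to 6.97 CPM in IgG1 and 3.76 to 8.83 CPM in NTB libraries. Slc27a2 had 1 to 83 counts per library, or 0.0376 to 2.50 CPM in 3P10, 0.0383 to 1.13 CPM in IgG1 and 0.0671 to 0.807 CPM in NTB libraries, and the lowest library of each group lay under the limit that a count of 0 allows.

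**Figure D4:**
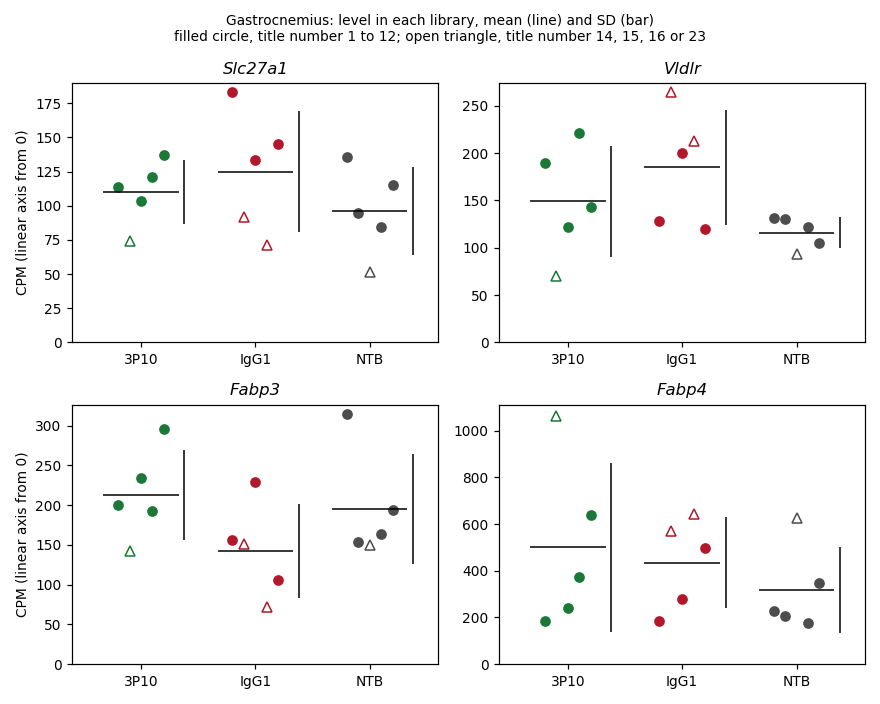
Level in CPM (y axis, linear from 0) of 4 members in each gastrocnemius library (3P10 green, IgG1 red, NTB grey; open triangles are title numbers 14, 15, 16 and 23), with the group mean (line) and SD (bar). The open triangles of Slc27a1 are the lowest points of each group and those of Fabp4 are the highest, and no group stands apart from another.

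Some genes around the members were called in gastrocnemius in IgG1 against NTB, where 5.6% of all genes tested were called. The acyl-CoA synthetase Acsl3 rose (0.97, SE 0.26, adjusted p = 0.037), 1 of 10. The regulators Klf15 (0.90, SE 0.20, adjusted p = 0.0177) and Nr1h3 (0.65, adjusted p = 0.0275) rose, 2 of 14, and the cavin gene Prkcdbp fell (-0.67, adjusted p = 0.0231), 1 of 15. No list gene was called in the other 2 comparisons. Fibroblast markers fell in 5 of 10 cases and the endothelial marker Emcn fell (-0.85, SE 0.21, adjusted p = 0.0284), 1 of 12. The median log2 fold change in that comparison was 0.23 over the 9 members and -0.28 to 0.18 over the 6 pathway lists, beside 0.01 over all genes.

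Whether the effect of a group differed between white fat and gastrocnemius was tested as an interaction in a joint edgeR fit of the 30 libraries. No member was called for IgG1 against NTB, where 1.11% of 14898 genes were, or for 3P10 against IgG1, where 0.208% were. Slc27a1 came closest, with a log2 difference of 1.21, SE 0.39, adjusted p = 0.105 for IgG1 against NTB and -1.21, SE 0.39, adjusted p = 0.118 for 3P10 against IgG1. Slc27a2 and Fabp3 had log2 differences of 2.87 (adjusted p = 0.337) and 2.31 (adjusted p = 0.137) for IgG1 against NTB, and of -3.92 (adjusted p = 0.133) and -2.27 (adjusted p = 0.158) for 3P10 against IgG1. DESeq2 called 1 member for IgG1 against NTB and 0 for 3P10 against IgG1. At an unadjusted p under 0.05, Slc27a1 and Fabp3 passed for IgG1 against NTB, and Slc27a1, Slc27a2 and Fabp3 for 3P10 against IgG1.

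**Figure D5:**
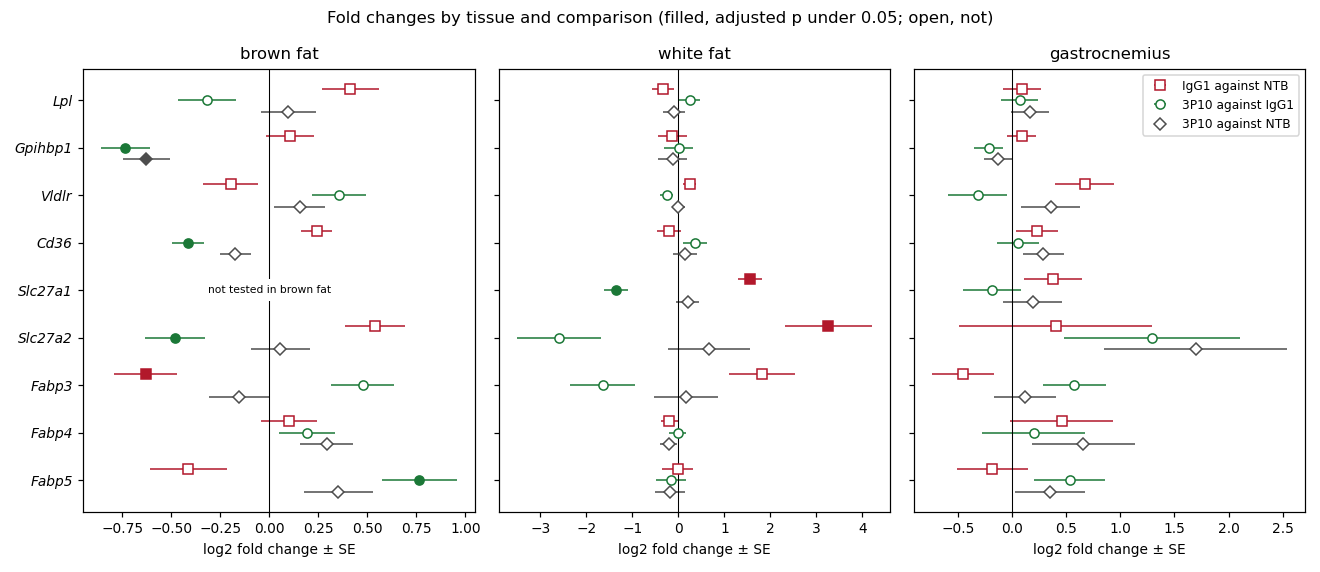
Log2 fold change with its SE (x axis, another range in each panel) of each member (y axis) by tissue, for IgG1 against NTB (red squares), 3P10 against IgG1 (green circles), or 3P10 against NTB (grey diamonds). Filled symbols are called: 0 for gastrocnemius, 3 for white fat and 6 for brown fat.

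In tumour-free mice, white fat differed from gastrocnemius for 9 of 9 members in the joint fit, where 71.7% of all genes were called. Of the 9, 7 were higher (38.7% of all genes) and 2 were lower (33%) in white fat. The 7 higher members were led by Fabp4, the binding protein of fat cells: Fabp4 (4.96, SE 0.44, adjusted p = 6.47e-11), Fabp5 (4.49), Lpl (3.48), Slc27a2 (3.41, SE 1.01), Cd36 (3.31), Slc27a1 (2.23) and Gpihbp1 (1.83) had positive log2 fold changes of white fat over gastrocnemius. Slc27a2 was near its detection limit in gastrocnemius, at 0.508 ± 0.436 CPM on the joint scale (SD, n = 5). Fabp3, the form of oxidative muscle, was lower in white fat (-3.75, SE 0.61, adjusted p = 4.16e-06), at 20.1 ± 10.4 CPM in white fat and 270.2 ± 94.9 CPM in gastrocnemius on the joint scale (SD, n = 5 each). Vldlr was lower in white fat too (-0.65, SE 0.22, adjusted p = 0.0109), at 102 ± 16.6 CPM in white fat and 161 ± 22.1 CPM in gastrocnemius on the joint scale (SD, n = 5 each), and its fold was -0.79 to -0.59 over the alternatives of the joint fit. The sign of the Vldlr fold rests on the joint scaling. Scaled within each tissue, Vldlr averaged 143 CPM in white fat and 116 CPM in gastrocnemius NTB libraries, the other order. The joint factors take most genes to be alike between libraries, while 71.7% were called here. Apart from those values on the joint scale, the CPM given above were scaled within each tissue and set no level across tissues. The folds of Lpl, Slc27a2 and Cd36 lay within 1 SE of each other.

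The genes whose log2 CPM followed a member's most closely over all libraries of a tissue are given as a description, since libraries share group and depth, for the members called in that tissue and for white fat Fabp3 and gastrocnemius Fabp4 and Fabp3, which were not called. In white fat (15 libraries) Slc27a1 was closest to the acyl-CoA thioesterase gene Acot4 (Pearson r = 0.959) and to Nxnl1 (0.949), and Slc27a2 to Mrpl47 (0.959) and Trmt10c (0.948). White fat Fabp3 was closest to Phospho1 (0.949) and to the malic enzyme gene Me3 (0.948). In brown fat (17 libraries) Gpihbp1 was closest to Rasal2 (0.868) and Ddx6 (0.868), Cd36 to Bcl2l1 (0.896) and Dnajc8 (0.893), and Slc27a2 to Ginm1 (0.854) and Zfhx4 (0.816). Brown fat Fabp3 was closest to Cyb5r1 (0.888) and to the acyltransferase gene Mogat1 (0.800), and Fabp5 to Ncan (0.824) and to the acetyl-CoA carboxylase gene Acaca (0.804). In gastrocnemius Fabp4 was closest to Arxes1 (0.969) and Arxes2 (0.944), which fat cells express, and Fabp3 to the malate dehydrogenase gene Mdh1 (0.927).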

How the data were processed

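The authors deposited counts, which are whole reads for each gene symbol, in 1 table for brown fat and another for white fat and gastrocnemius. Per the labels' protocols, brown fat libraries came from a QuantSeq 3′ kit with molecular identifiers, and the others from a directional kit. Per the submitters' processing notes, Trim Galore, STAR 2.6.0a, featureCounts 1.6.2, edgeR 3.22.3 and build mm9 were used. The annotation, the strand setting and whether identifiers were collapsed are not given in the sources used here, so no gene coordinates are printed and promoters come from RefSeq on GRCm38.p6.

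Each tissue was fitted with its 3 groups in edgeR 4.0.16 (R 4.3.3) with TMM factors, filterByExpr (minimum count 10, minimum total 15) and the 2-sided quasi-likelihood test, with Benjamini-Hochberg adjustment over all genes tested. White fat and gastrocnemius were also fitted together. Residual degrees of freedom numbered 12 for gastrocnemius, 12 for white fat and 14 for brown fat. Log2 CPM used a prior count of 2. Alternatives were DESeq2 1.42.0, other factors and filters, a replicate block, title numbers, marker scores, and each library left out in turn. The endothelial score, the brown and beige score and the fit without white fat IgG1 replicates 2 and 4 were chosen after seeing the data.

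The members and lists were chosen with earlier results of these data known. Named genes are the 9 members, up to 4 called genes of each list with the smallest adjusted p, defining markers, and the 2 genes most correlated with a member, of which the text gives a part; Slc27a3, Slc27a4 and Slc27a6 were named after their values were seen. The labels do not say that samples of a group came from separate animals, so p-values measure the spread between these samples. Library totals and the limits they set stand in the results.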

Additional observations from a re-analysis of the deposited data

Results flagged for a closer look

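Each member was looked at in each group of 5 or 6 libraries, 81 cases in all, for a library far from the others. Chance alone marks about 1 in 20 such cases, and 2 were found, both in NTB libraries of Fabp3. In brown fat, NTB replicate 5 had 2259.8 CPM, against 1352 to 1680 CPM in the other 5 NTB libraries. Without it the fall of Fabp3 in IgG1 against NTB was -0.51 with adjusted p = 0.0790 by edgeR. In gastrocnemius, NTB replicate 1 had 314 CPM of Fabp3, against 150.1 to 194 CPM in the other 4 NTB libraries. Without it the Fabp3 log2 fold change in IgG1 against NTB was -0.21 with adjusted p = 0.772, against -0.45 with all libraries.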

How the results depend on the processing

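Counts of members called moved by more than 1.5 times as follows. In brown fat IgG1 against NTB, 1 was called in the reported fit, 3 with DESeq2, 2 without a low-count filter, 0 with a replicate block and 2 with the endothelial marker score. In brown fat 3P10 against IgG1, 4 were called, and 2 with that score. In brown fat 3P10 against NTB, 1 was called, and 0 with that score. In white fat IgG1 against NTB, 2 were called, and 1 without a low-count filter, with only the 2 groups compared, with the replicate block, with the title-number term, without the IgG1 libraries numbered 14 and 23, or with the brown and beige score, and 0 within title numbers 1 to 12. In white fat 3P10 against IgG1, 1 was called, 2 with DESeq2, and 0 within title numbers 1 to 12 or without those 2 libraries (Slc27a1 -1.29, adjusted p = 0.0863). In gastrocnemius IgG1 against NTB, 0 were called, and 1 with the title-number term. For the interaction in IgG1 against NTB, 0 were called, and 1 with DESeq2. The cause of these moves was not tested. With each library left out in turn the counts were 0 to 3, 3 to 6 and 1 in the 3 brown fat comparisons in the same order, 1 to 2 in white fat 3P10 against IgG1 and 1 to 3 in white fat IgG1 against NTB, 0 in white fat 3P10 against NTB and in gastrocnemius, 0 to 1 for each interaction, and 9 for white fat against gastrocnemius.

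The 55 member folds with an unadjusted p under 0.2 were followed through the alternatives, and none of those called changed sign. Signs turned for folds that were not called: Fabp4 in brown fat with the endothelial score (-0.12 in 3P10 against IgG1 and -0.18 in 3P10 against NTB), Fabp3 in white fat within title numbers 1 to 12 (0.20 in 3P10 against IgG1 and -0.15 in IgG1 against NTB) or without the IgG1 libraries numbered 14 and 23 (0.064 in 3P10 against IgG1), Cd36 in white fat 3P10 against IgG1 within numbers 1 to 12 (-0.10), and Fabp4 in gastrocnemius 3P10 against NTB with the adipocyte score (-0.19). Of all genes, those called ranged from 34 to 554 (reported 259) in brown fat IgG1 against NTB, 425 to 1120 (1013) in 3P10 against IgG1 and 0 to 675 (501) in 3P10 against NTB. The ranges were 84 to 2631 (1245), 0 to 2369 (1068) and 0 to 32 (0) in white fat, 327 to 2455 (744), 7 to 668 (28) and 0 to 14 (0) in gastrocnemius, and 20 to 598 (166) and 2 to 562 (31) for the interactions.

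The replicate numbers did not meet the rule for pairing, a correlation over 0.1 in every same-numbered pair: 9 of 15 pairs did for gastrocnemius, 8 of 15 for white fat and 0 of 16 for brown fat. Correlations of same-numbered libraries' deviations were -0.596 to 0.556 for gastrocnemius, -0.208 to 0.467 for white fat and -0.137 to 0.0817 for brown fat, and 7 of 15, 8 of 15 and 0 of 17 libraries correlated best with their own number, where 3, 3 and 2.83 would if every library of the other groups were as likely to be closest. For gastrocnemius and white fat these counts do not settle whether numbers pair, since some same-numbered pairs ran strongly the other way. In gastrocnemius, NTB replicate 3 (title number 16) had -0.596 with IgG1 replicate 3 (title number 2). It had -0.517 with 3P10 replicate 3 (title number 3), while those IgG1 and 3P10 libraries had 0.495 with each other. A replicate number thus joins libraries with distant title numbers. Under the replicate block Fabp3 in brown fat IgG1 against NTB had adjusted p = 0.0516, Slc27a2 in brown fat 3P10 against IgG1 had 0.0561 and Slc27a2 in white fat IgG1 against NTB had 0.0740, while 3, 1, 1 and 9 members were called in brown fat 3P10 against IgG1, brown fat 3P10 against NTB, white fat 3P10 against IgG1 and white fat against gastrocnemius. White fat and gastrocnemius libraries of the same group and title number had correlations of -0.161 to 0.203. In brown fat Slc27a1 had too few counts to be tested at the depth of these libraries, and whether depth, its level or the 3′ kit set this was not tested.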
